A study of Mus musculus with 12 samples.

Results

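Chromatin accessibility of normal mouse hair follicle (HF) was set against that of normal interfollicular epidermis (IFE), the epidermis between the follicles. The assay, ATAC-seq, uses a transposase that cuts adapters into open DNA, so that the count over a region rises with how open it is. HF and IFE are 2 of the 6 samples of the series, chosen by their labelled cell type and genotype, with 1 sample each. Both are wild-type cells of female mice of mixed strain, and neither carries a transgene or a deletion. Each has 1 run of single-end reads and 1 of paired-end reads, so 4 of the 12 runs are described here, summed per sample and also read alone. The 4 other samples come from skin tumours of K14CreER or Lgr5CreER mice, whose Cre is driven by a basal keratin promoter or by Lgr5, with the alleles KRasLSL-G12D, p53fl/fl and Rosa-YFP+/+. They enter at the end, and in the scaling. The sort used antibodies to CD45, CD31, CD140a and Epcam; how the follicle and interfollicular fractions were parted, and how many animals gave each, is not given in the sources used here. With 1 sample a side there is no replicate error and no p-value, and intervals cover counting error only.

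The follicle and the interfollicular epidermis form one continuous sheet of keratinocytes kept up by separate pools of stem cells. Stem cells of the follicle bulge are quiescent for long periods and return to activity when Wnt signals outweigh Bmp signals, whereas interfollicular basal cells feed a steady outward flow of cells that switch to suprabasal keratins, make barrier lipids and cornify. Open chromatin at promoters and distant elements is one layer at which these programmes differ; it is not a measure of mRNA.

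Of 177240 peaks shared by the 6 samples, 177238 had enough counts to be compared. A log2 ratio is HF over IFE on CPM (each count divided by the sample's scaled total in peaks and multiplied up to a common total), scaled by TMM with a prior count of 2. A peak was called when the ratio was at least 2 in size on the summed runs and at least 1 in each run. The limit in each run removed no peak that passed on the summed runs. For genes, counts were summed over the peaks nearest to a protein-coding gene, inside it or within 50 kb, and the limits were 1 and 0.5. These are sizes, not tests. Where a peak lies nearest to a gene it is not thereby shown to act on that gene, and neighbouring genes can share an element.

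The sequences of 6 promoters and 6 microRNAs that the results on start sites and microRNA loci turn on are printed first. The promoters are those of Tbx1, a T-box transcription factor, Angptl7, a secreted angiopoietin-like protein, and Cd34, a surface protein of bulge cells, which were more open in HF, and of Bmp4, a secreted Bmp ligand, Casp14, a caspase of the cornifying layers, and Grhl3, a transcription factor of barrier formation, which were more open in IFE. They were chosen after their values were seen. Each is 300 bases around a RefSeq start site on GRCm38.p6, read 5′ to 3′ along the gene's strand, and capitals mark matches to the E-box letters CACCTG or the Nfat-type letters TGGAAA on either strand, so that CAGGTG and TTTCCA also count.

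Tbx1 promoter, chr16:18588850-18589149, minus strand: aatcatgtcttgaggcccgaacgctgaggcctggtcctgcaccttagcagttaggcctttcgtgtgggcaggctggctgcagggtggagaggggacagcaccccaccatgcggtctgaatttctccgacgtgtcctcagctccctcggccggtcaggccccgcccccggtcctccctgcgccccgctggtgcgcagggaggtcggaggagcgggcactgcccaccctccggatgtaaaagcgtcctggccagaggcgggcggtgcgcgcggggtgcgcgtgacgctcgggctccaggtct
Angptl7 promoter, chr4:148500413-148500712, minus strand: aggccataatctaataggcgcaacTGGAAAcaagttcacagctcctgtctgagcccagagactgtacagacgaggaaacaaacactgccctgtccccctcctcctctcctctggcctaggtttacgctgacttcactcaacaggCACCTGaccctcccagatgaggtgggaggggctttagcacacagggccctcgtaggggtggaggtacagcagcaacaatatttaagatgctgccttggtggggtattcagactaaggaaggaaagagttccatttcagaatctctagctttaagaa
Cd34 promoter, chr1:194938571-194938870, plus strand: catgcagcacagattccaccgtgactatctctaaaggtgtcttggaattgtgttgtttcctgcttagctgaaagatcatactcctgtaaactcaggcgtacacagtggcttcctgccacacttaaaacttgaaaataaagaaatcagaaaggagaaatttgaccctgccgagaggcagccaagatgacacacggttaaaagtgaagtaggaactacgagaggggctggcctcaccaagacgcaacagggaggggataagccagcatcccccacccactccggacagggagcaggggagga
Bmp4 promoter, chr14:46390620-46390919, minus strand: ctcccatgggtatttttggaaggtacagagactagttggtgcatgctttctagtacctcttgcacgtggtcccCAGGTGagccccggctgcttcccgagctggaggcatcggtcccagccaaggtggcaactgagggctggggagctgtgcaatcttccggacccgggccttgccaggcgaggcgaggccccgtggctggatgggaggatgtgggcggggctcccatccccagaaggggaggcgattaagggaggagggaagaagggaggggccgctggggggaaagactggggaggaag
Casp14 promoter, chr10:78718244-78718543, minus strand: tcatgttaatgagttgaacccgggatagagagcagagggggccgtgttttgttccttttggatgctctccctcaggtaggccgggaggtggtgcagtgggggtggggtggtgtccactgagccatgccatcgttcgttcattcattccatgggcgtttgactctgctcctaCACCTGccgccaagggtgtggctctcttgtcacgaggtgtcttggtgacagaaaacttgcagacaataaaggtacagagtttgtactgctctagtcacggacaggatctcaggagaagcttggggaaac
Grhl3 promoter, chr4:135573583-135573882, minus strand: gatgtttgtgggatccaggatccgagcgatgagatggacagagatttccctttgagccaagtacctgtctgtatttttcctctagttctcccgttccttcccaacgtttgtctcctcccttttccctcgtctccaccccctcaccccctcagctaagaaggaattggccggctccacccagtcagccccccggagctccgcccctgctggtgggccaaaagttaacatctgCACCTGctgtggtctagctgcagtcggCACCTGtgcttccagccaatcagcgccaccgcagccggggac

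The letters CACCTG were found once each in the Angptl7, Bmp4 and Casp14 windows, 2 times in the Grhl3 window, and not in those of Tbx1 and Cd34; TGGAAA was found in the Angptl7 window alone. A match describes letters, not a bound site, and no match says only that these letters are not in this window. The E-box and Nfat-type letters could overlap by the letters TG, and no match printed above overlaps another.

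The mature microRNAs below are made from loci that differed in openness, with the seed (bases 2 to 8) in capitals; they too were chosen after their values were seen. They are RefSeq's on GRCm38.p6.

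mmu-miR-140-3p: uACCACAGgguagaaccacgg
mmu-miR-204-5p: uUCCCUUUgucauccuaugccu
mmu-miR-184-3p: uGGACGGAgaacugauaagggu
mmu-miR-203-3p: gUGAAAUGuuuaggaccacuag
mmu-miR-211-5p: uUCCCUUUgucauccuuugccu
mmu-miR-199a-3p: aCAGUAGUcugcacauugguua

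The first 3 come from loci more open in HF and the other 3 from loci more open in IFE, with the caveat that miR-199a-3p is made from 2 hairpins. The locus that differed is Mir199a-1, and RefSeq gives the same mature sequence for Mir199a-2, whose locus was not called. miR-204-5p and miR-211-5p share the seed UCCCUUU, so they recognise the same short target letters, and their loci went opposite ways.

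HF had 32086654 counts in peaks and IFE had 34040799. Peaks took 24.0% of the counts in HF and 29.6% in IFE, against 34.4% to 47.2% in the tumour samples, so the background is larger in HF. If reads outside peaks fell evenly over the genome, background would make up 26.0% of the HF and 19.5% of the IFE peak counts. The ratios of single peaks in the single-end and the paired-end runs had a Pearson correlation of 0.79 over 177238 peaks, and those of genes 0.86 over 18116 genes; peaks and genes are not independent replicates, and runs of a sample share its cells. Of 134 called genes that are named or listed here, 128 had the ratio of larger size in the paired-end runs and 6 in the single-end runs.

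The labels were checked against marker lists. All 18 genes of a follicle stem cell list, among them Lgr5, Lhx2, Sox9 and Nfatc1, had ratios above 0, with 5 called higher in HF, none lower and a median of 0.77. Of 20 epidermal differentiation genes, 16 were below 0 and 5, namely Krt1, Zfp750, Krt77, Krt10 and Casp14, were called lower, with a median of -0.50. Over all 18116 genes, 462 (2.55%) were called higher in HF and 269 (1.48%) lower, with a median of 0.00. Both of these marker lists went the way of the labels. They were chosen with earlier results of these data known, so this is not an independent check. Other follicle lists did not lean to HF in this way. Of 12 upper follicle genes none was called, with a median of -0.15 (-0.22 to -0.06 under the alternatives). Of 21 hair shaft and inner root sheath genes 2 were called higher and 2 lower. Their median of 0.21 turned below 0 in the paired-end runs. The sort stained for CD45 of leukocytes, CD31 of endothelial cells and CD140a of fibroblasts, the markers by which a gate would remove those cells. No source used here says which gates were set for HF and IFE. Among lists for other cell types, melanocyte genes (8 measured) summed to 433 CPM in HF and 339 CPM in IFE, leukocyte and Langerhans cell genes (15) to 338 CPM in HF and 370 CPM in IFE, fibroblast and dermal papilla genes (16) to 596 CPM in HF and 514 CPM in IFE, and endothelial genes (12) to 728 CPM in HF and 741 CPM in IFE. None of these 4 lists had more than 1 gene called, Col1a2 among the fibroblast and Sox17 among the endothelial genes, both higher in HF. Merkel cell genes (11) summed to 338 CPM in HF and 260 CPM in IFE, Schwann cell and neuron genes (10) to 521 CPM in HF and 640 CPM in IFE, smooth muscle and pericyte genes (10) to 448 CPM in HF and 387 CPM in IFE, and adipocyte genes (8) to 400 CPM in HF and 360 CPM in IFE, with Lep the only called gene, higher in HF. The median ratios were 0.08 for melanocyte, -0.03 for leukocyte and Langerhans cell, 0.26 for fibroblast and dermal papilla, and 0.23 for endothelial genes. They were 0.01 for Merkel cell, 0.29 for Schwann cell and neuron, and 0.32 each for smooth muscle and pericyte and for adipocyte genes. The endothelial and the Schwann cell and neuron medians thus lay above 0, although their sums were larger in IFE. The part of these cell types in the differences below was not tested. In bulk samples a smaller number of cells of a type and less open chromatin per cell cannot be told apart.

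Across the genome, 2745 peaks (1.55%) were called higher in HF and 939 (0.53%) lower. The same rule between the samples 1 and 2 of the Lgr5 Epcam+ tumour group, which are labelled alike, called 769 peaks (0.434%) higher in sample 1 and 1705 (0.962%) lower, and 288 genes (1.59%) higher and 493 (2.72%) lower. Counts of this order thus also arose between samples of one group: the larger of its peak counts was 1705 against 2745 here, and the larger of its gene counts 493 against 462 here. The peaks called higher had a median of 10.4 CPM in HF and 1.76 CPM in IFE, and those called lower 3.30 CPM in HF and 14.8 CPM in IFE. Of the peaks just inside the limit (2 to 2.1), 424 were higher and 369 lower, and just outside it (1.9 to 2) were 471 and 496, so the count depends closely on the limit.

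**Figure D1:**
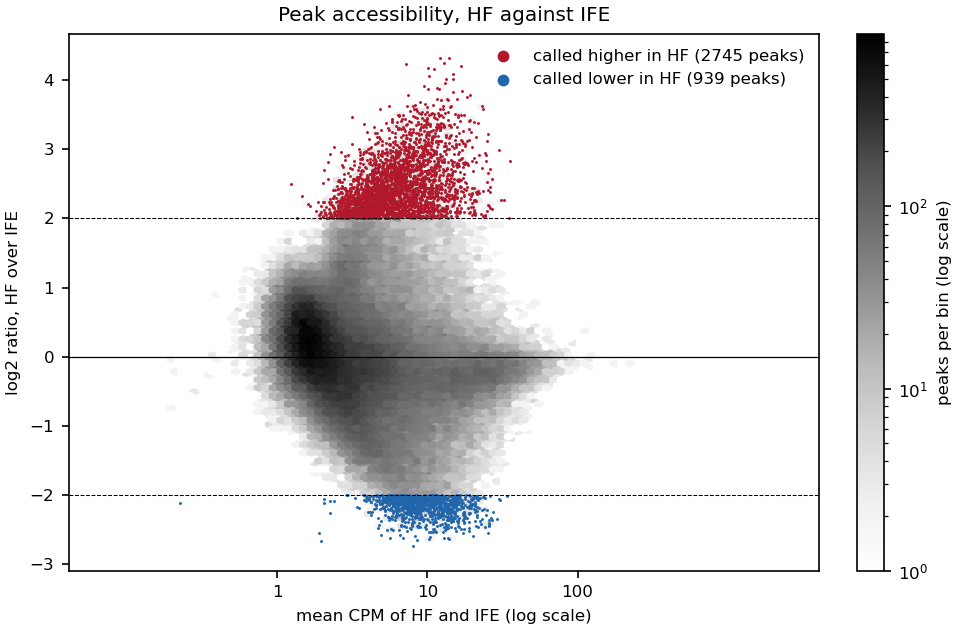
Log2 ratio of HF over IFE (vertical axis) against the mean CPM of both samples on a log axis (horizontal axis) for the tested peaks, with the 2745 called higher and the 939 called lower in HF in colour. Higher calls reach 4.32 and lower calls -2.74 in the log2 ratio.

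The higher side of the called peaks was the larger one at 74.5% of all calls. This split moved with the scaling. It was 87.6% with total-count scaling, 95.5% with loess scaling, and 61.6% with the background subtracted, and it was 86.1% in the single-end and 65.4% in the paired-end runs alone. At limits of 1 and 0.5 in each run the order turned, with 13352 peaks (7.53%) higher and 14671 (8.28%) lower. Total-count scaling also moved the median of all peaks by 0.13 on the log2 scale. The called peaks of the higher set are larger in ratio, and those of the lower set more numerous at small ratios.

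The sets lay in different places. Peaks over 50 kb from any protein-coding gene made up 34.0% of the peaks higher in HF, 20.9% of those lower in HF and 17.3% of all peaks. Peaks within 1 kb of a gene's end or start made up 2.40% of the higher set, 5.64% of the lower set and 11.9% of all peaks. Peaks inside genes made up 39.9%, 40.9% and 45.5%. These classes also differed as a whole. The median ratio was 0.14 for peaks over 50 kb away and -0.18 for those within 1 kb of a gene's end or start. The median ratio differed with the level, being 0.30 in the tenth of peaks with the lowest mean CPM and -0.25 in the tenth with the highest, so that weak peaks leaned to HF, where the background is higher, and strong peaks to IFE. What the background adds to that lean was not tested beyond the subtraction given in the closing section.

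Among genes with above-median levels and at least 2 peaks, Hs3st2, which makes heparan sulphate chains carrying a rare sulphate group, had the largest ratio: 93.8 CPM in HF and 10.1 CPM in IFE, a log2 ratio of 3.21 (95% interval 3.05 to 3.39), with 2.81 in the single-end and 3.57 in the paired-end run. All 3 of its peaks lay above 0. A neural adhesion gene and a sorting receptor gene were among the next. Cntn5, a contactin, had 90.1 CPM in HF and 17.8 CPM in IFE (2.34), and Sorcs3, a sortilin family receptor, had 101.5 CPM in HF and 22.1 CPM in IFE (2.20). Chat, the enzyme that makes acetylcholine, had 77.3 CPM in HF and 18.2 CPM in IFE (2.08), and 8 of its 9 peaks were above 0.

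Further genes with large ratios had a range of roles. Atp8a2, a phospholipid flippase, had 300.2 CPM in HF and 74.7 CPM in IFE (2.01), with 8 of its 28 peaks called higher. Scg5, a chaperone of a prohormone convertase, had 171.3 CPM in HF and 46.2 CPM in IFE (1.89) with 6 of 13 peaks called, and Shisa2, a member of a family that holds back Wnt and Fgf receptors in frog, had 71.3 CPM in HF and 17.7 CPM in IFE (2.01). Lgr5, one of the best known bulge markers, sat among them at 216.3 CPM in HF and 48.3 CPM in IFE (2.16). The tyrosine phosphatase gene Ptpn20 reached 2.34, and Thsd1, a thrombospondin-domain gene, had 174.3 CPM in HF and 43.5 CPM in IFE.

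**Figure D2:**
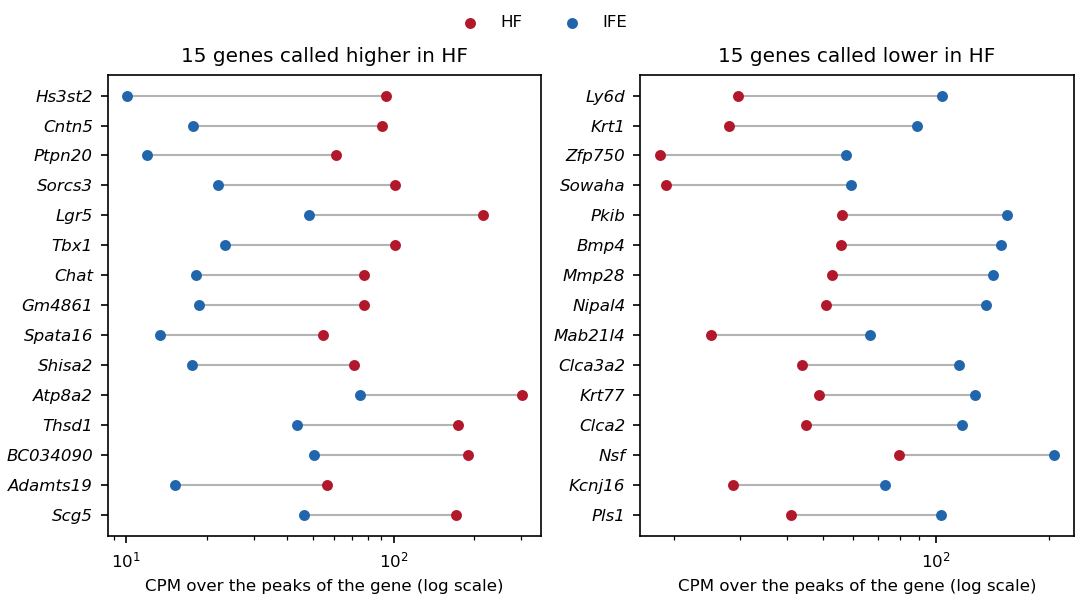
CPM in HF and in IFE (horizontal axis, log scale) of the 15 genes with the largest ratio in each direction among called genes of above-median mean CPM with at least 2 peaks. Ratios run from 3.21 for Hs3st2 to 1.89 among the higher genes, and from -1.81 for Ly6d to -1.33 for Pls1 among the lower.

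The lower genes were smaller in ratio, and several act in keratinocytes. Ly6d, a membrane-anchored protein of keratinocytes and lymphocytes, had 29.7 CPM in HF and 104.1 CPM in IFE (log2 ratio -1.81, 95% interval -1.92 to -1.70), and none of its 3 peaks was above 0. Pkib, an inhibitor of protein kinase A, had 56.2 CPM in HF and 154.6 CPM in IFE (-1.46), with 4 of 17 peaks called lower. Mmp28, a metalloproteinase of epidermal keratinocytes, had 52.9 CPM in HF and 141.6 CPM in IFE (-1.42). Clca2, which modulates calcium-activated chloride currents, had 45.0 CPM in HF and 117.2 CPM in IFE (-1.38), and its neighbour Clca3a2 had 43.8 CPM in HF and 115.0 CPM in IFE (-1.39). These neighbours are similar in sequence, so reads may not be shared out correctly between them. Nsf, an ATPase of vesicle fusion that lies beside Wnt3, had 79.5 CPM in HF and 206.6 CPM in IFE (-1.38).

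A locus can carry many called peaks. Trabd2b, whose protein is a membrane protease that inactivates Wnt ligands, had 13 of 71 peaks called higher and 69 of 71 above 0, with 797 CPM in HF and 264 CPM in IFE (1.59). Dennd1a, an activator of a vesicle-trafficking GTPase, had 8 of 39 called (310.8 CPM in HF, 97.2 CPM in IFE). Tenm3, a teneurin adhesion protein, had 7 of 61 called (1.23), whereas Tenm4 had 8 of 112 called and a summed ratio of only 0.42, and Macrod2 8 of 162 and 0.11. In those last genes the called peaks are few beside many that did not differ by the limit. Mitf, the master regulator of melanocytes, had 7 of 37 peaks called higher and an uncalled gene ratio of 0.67 (272 CPM in HF, 170.4 CPM in IFE), while Sox10 and Dct of the same list stood at 0.04 and 0.07. On the lower side, the most called peaks of a gene were 4, in Pls1, Pkib, Nsf and Ptgfrn. Of all genes, 132 had at least 3 peaks called higher and 12 at least 3 called lower.

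Single peaks had larger ratios than gene sums. The largest ratio among higher peaks was inside Siah3, of a ubiquitin ligase family (mm10 chr14:75472948-75473969), with 26.4 CPM in HF and 1.28 CPM in IFE (4.32, 95% interval 3.94 to 4.83). A peak 22615 bases from Rest, the repressor of neuronal genes (chr5:77241879-77242879), had 21.6 CPM in HF and 1.59 CPM in IFE (3.72). Near Lmo4, a LIM-only cofactor, a peak (chr3:144173782-144174805) had 22.4 CPM in HF and 1.48 CPM in IFE (3.88), while the gene as a whole had 0.68 and was not called. Among lower peaks, one by Hes5, a Notch target (chr4:154947801-154949140), had 2.89 CPM in HF and 17.9 CPM in IFE (-2.61), and one by Gjb5, an epidermal connexin (chr4:127359493-127360611), had 5.01 CPM in HF and 29.7 CPM in IFE (-2.55). The lower peak with the largest ratio lay near Zbed3 (chr13:95299310-95300351), at 2.04 CPM in HF and 13.9 CPM in IFE (-2.74).

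The signalling genes that hold the bulge quiet or wake it were split. Of 39 Bmp and Tgf-beta genes, 4 were called higher and 1 lower, with a median of 0.34. The single lower gene was Bmp4, a ligand (55.7 CPM in HF, 149.5 CPM in IFE, -1.42). Among the higher genes, Grem1, a secreted Bmp antagonist, had 32.6 CPM in HF and 9.86 CPM in IFE (1.72), Fstl1, a follistatin-like protein, had 115.7 CPM in HF and 43.8 CPM in IFE (1.40), and Ltbp2, a matrix protein of the latent Tgf-beta binding family, had 183.5 CPM in HF and 73.1 CPM in IFE (1.33). The other one, Gdf10, is a ligand (1.13). The median of this list stayed above 0 under each alternative, at 0.26 to 0.48.

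Of 31 Wnt ligand and receptor genes, 2 were called higher and 1 lower, with a median of 0.04. Of 12 Wnt ligand genes 10 were below 0 (median -0.53), and of 9 Frizzled receptor genes 6 were above 0 (median 0.61), a division by role that was made after the values were seen. Ror2, a Wnt receptor tyrosine kinase, had 303.6 CPM in HF and 131.9 CPM in IFE (1.20) and Rspo1, a secreted amplifier of Wnt signals, had 40.1 CPM in HF and 16.9 CPM in IFE (1.25). The ligand Wnt16 was lower (24.7 CPM in HF, 58.5 CPM in IFE, -1.24). Of 23 antagonists and targets, 2 were called, both higher, namely Nkd1, an inside brake on the pathway (1.40), and Sostdc1, a Wnt and Bmp antagonist (1.10), and the list median of -0.01 turned above 0 in either run alone. Hhip, an antagonist of Hedgehog, was higher (77.3 CPM in HF, 33.0 CPM in IFE, 1.23) and the only one of 14 Hedgehog genes called. None of 22 Notch genes was called, with a median of 0.02.

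Several matrix families leaned to HF, but not all. Of 22 matrix metalloproteinase genes 1 was lower and none higher, with 13 below 0 (median -0.12). None of 11 laminin genes was called (median -0.09). Of 25 bulge matrix and niche genes 3 were called higher, and none lower: Angptl7 (46.5 CPM in HF, 8.75 CPM in IFE, 2.40), Postn and Fbn1. Of 43 collagen genes 4 were higher and none lower, and 32 were above 0 (median 0.24); beside Col1a2 these were Col8a2 (1.36), Col24a1 (1.28) and Col5a2 (1.23). Of 39 ADAM and ADAMTS protease genes 3 were higher and none lower (median 0.49, 33 above 0), with Adamts19 at 1.89. Fibroblasts, which carry the CD140a that the sort stained for, also express many of these genes. Their list above summed to 596 CPM in HF and 514 CPM in IFE, with a median ratio of 0.26, and its part here was not tested. Hox cluster genes, patterning factors that record body position, were above 0 in 34 of 39 (median 0.38), with Hoxc13, Hoxd3 and Hoxd8 called higher. A median of the size of the collagen one was not particular to matrix genes. Of 185 olfactory receptor genes 121 were above 0 and 64 below (median 0.22), with 16 called higher and 5 lower. Of 69 vomeronasal receptor genes 45 were above 0 and 24 below (median 0.21). Under the alternatives the olfactory median ran from 0 to 0.22 and the collagen median from 0.20 to 0.29.

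Several barrier families leaned to IFE, but not all. Of 28 late cornified envelope and small proline rich protein genes, 1 was higher and 1 lower. Their median of -0.06 turned above 0 in either run alone. Of 24 cornified envelope and desquamation enzyme genes, 18 were below 0 (median -0.34). Klk11 of that list was lower (-1.75) and Tgm5 higher (133.3 CPM in HF, 57.1 CPM in IFE, 1.22). Of 26 barrier lipid genes, 4 were lower and none higher, with 20 below 0 (median -0.35). Nipal4, a gene mutated in human ichthyosis, had 50.9 CPM in HF and 135.9 CPM in IFE (-1.42), Acer1, a ceramidase, had 33.3 CPM in HF and 77.5 CPM in IFE (-1.22), and Elovl4, which elongates very long chain fatty acids, had 56.5 CPM in HF and 114.8 CPM in IFE (-1.02). Kallikrein genes, some of which encode the proteases that shed the surface, were 3 lower and none higher of 16 (median -0.61); near-identical copies such as Klk1b24 make single members uncertain. All 8 measured Skint genes, a family that includes the gene needed for the gamma-delta T cells of mouse epidermis, lay below 0 without reaching the limit (median -0.43), and they too are similar copies.

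Interleukin and receptor genes leaned to IFE as well, whereas chemokine genes leaned to HF. Of 33 chemokine genes, 3 were higher and 1 lower, and 23 were above 0. Their median was 0.21 (0.03 to 0.23 under the alternatives). Of 80 interleukin and receptor genes, 7 were lower and 1 higher, and 51 were below 0 (median -0.20). The lower ones included Il20ra (60.6 CPM in HF, 139.7 CPM in IFE, -1.20) and its neighbour Il22ra2 (50.2 CPM in HF, 122.1 CPM in IFE, -1.28), which bind cytokines of the interleukin-20 and interleukin-22 kind, Il6ra (102.6 CPM in HF, 213.6 CPM in IFE, -1.06), and the interleukin-36 receptor antagonist gene Il1f5 (-1.10). The higher one, Il12b, changed sign when only peaks within 10 kb were used. Of 25 beta defensin genes, antimicrobial peptides, 3 were lower, among them Defb1 with 56.3 CPM in HF and 127.7 CPM in IFE.

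**Figure D3:**
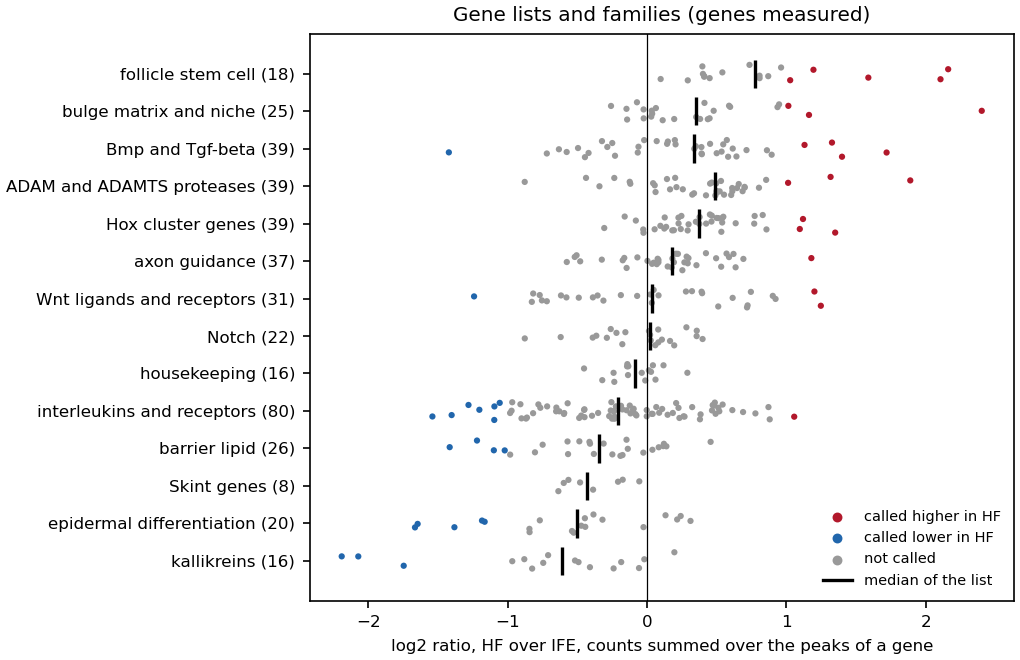
Log2 ratio of HF over IFE (horizontal axis) of each measured gene in 14 lists and families (rows), with the list's median marked. The follicle stem cell genes all lie above 0 (median 0.77), the 16 kallikrein genes have a median of -0.61, and 16 housekeeping genes lie at -0.09, which turned to just above 0 with the background subtracted.

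Peaks over start sites gave a narrower view. Of 11166 such peaks, 153 (1.37%) were higher and 391 (3.5%) lower by the limits of 1 and 0.5, against 7.53% and 8.28% of all peaks at the same limits. Their median was -0.23, so the lower calls stand in a set that lay below 0 as a whole. Of 20 start-site peaks of follicle stem cell genes 6 were higher and none lower, and of 20 of bulge matrix genes 5 higher and none lower. Of 30 of collagen genes 5 were higher and none lower, but of 17 of ADAM and ADAMTS protease genes 2 were lower and none higher. Of 9 of epidermal differentiation genes 5 were lower and none higher, of 18 of barrier lipid genes 6 lower and none higher, and of 7 of Skint genes 6 lower and none higher.

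The 6 printed promoters show these sets. The Tbx1 start site had 18.5 CPM in HF and 3.36 CPM in IFE (2.44), that of Angptl7 31.8 CPM in HF and 6.52 CPM in IFE (2.28), and that of Cd34 9.38 CPM in HF and 2.65 CPM in IFE (1.81). The Bmp4 start site had 7.21 CPM in HF and 37.7 CPM in IFE (-2.38), that of Casp14 15.5 CPM in HF and 59.9 CPM in IFE (-1.94), and that of Grhl3 7.98 CPM in HF and 19.4 CPM in IFE (-1.28). Other start sites chosen after their values were seen include Ltbp3, for a latent Tgf-beta binding protein, with 20.9 CPM in HF and 4.72 CPM in IFE (2.13), and Bdnf, a neurotrophin, with 8.69 CPM in HF and 2.62 CPM in IFE (1.71), although neither gene was called on its sum.

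Short letter runs were counted around these start sites, with no test. The higher and lower promoters had a median GC of 57.7% and 55.7% and a median of 8 CpG each, against 60.7% and 20 CpG over all 11166, so both called sets are poor in CpG. The E-box letters CACCTG were in 23 of 153 higher promoters, in 131 of 391 lower ones (33.5%) and in 2129 of all 11166 (19.1%). Because of the GC difference the same was counted in promoters under 50% GC, where the shares were 8.57% of 35 higher, 22.2% of 99 lower and 14.6% of all 1353. The AP-1 letters TGANTCA were in 9.80% of higher, 14.3% of lower and 6.14% of all, and the Cebp letters TTGCNNAA in 7.19%, 14.1% and 8.54%. The Nfat-type letters TGGAAA were in 26.8% of higher, 19.7% of lower and 16.5% of all, the Tead letters ACATTCC in 7.84%, 3.07% and 2.92%, and the Pitx and Otx letters GGATTA in 11.1%, 5.12% and 5.46%. Letters of GC-rich promoters were rarer in both called sets, with the Ets letters CCGGAAG in 1.31%, 6.65% and 15.6% and the Sp letters GGGGCGGGG in 14.4%, 11.8% and 21.9%.

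In the promoters under 50% GC the order of the shares changed for the AP-1 and the Sp letters. It was kept for the Cebp, the Nfat-type, the Tead, and the Pitx and Otx letters. The Sp letters were in 0% of higher, 2.02% of lower and 2.07% of all. The AP-1 letters were there in 8.57% of higher, 20.2% of lower and 13.97% of all, so that the higher set lay below all promoters and not above them. The Cebp letters were in 11.4% of higher, 26.3% of lower and 17.3% of all. The Nfat-type letters were in 48.6%, 32.3% and 31.5% of the same sets, the Tead letters in 14.3%, 5.05% and 4.95%, and the Pitx and Otx letters in 22.9%, 9.09% and 10.6%. With 35 promoters in the higher set, each promoter there weighs heavily in its share.

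All motifs were counted on both strands, and 37 were searched. The other 29 were, by the family each is named for, TAATTA for Lhx-type homeodomain factors and CTAATTAG for the same with flanks, TGACGTCA for Creb, ACAATGG and also CATTGTT for Sox, ATCAAAG for Tcf and Lef, TTGGCA for a single Nfi site, AGATAAG for Gata, GGGNGTGGC for Klf, TGTTTAC for forkhead and TGTGGTT for Runx factors. They also held ACCGGAAG for Gabpa, CAGCTG for the MyoD-type E-box, CACGTG for the Myc-type E-box, AAGGTCA for a single nuclear receptor site, GTGGGAA for Rbpj, GCCNNNGGC for Tfap2, AACNNGTT for Grhl, GGGAATTCC for NF-kB, AGGTGTGA for T-box factors, TGACAG for Meis and GTTGCCATG for Rfx. The longer ones, given by name, were the paired Nfi, p63 core, Ctcf core, steroid receptor pair, nuclear receptor pair, Irf and Nrf1 motifs. Several overlap, since CTAATTAG holds TAATTA and ACCGGAAG holds CCGGAAG. Their shares differed from that of all promoters by -9.3 to 4.28 percentage points in the higher set and by -7.08 to 6.73 in the lower. None of this shows that a factor was bound.

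MicroRNA loci were read as the sum of peaks within 10 kb of a hairpin, and the RNAs themselves were not measured. Of 821 loci with a peak, 16 (1.95%) were higher and 28 (3.41%) lower. Mir140, in the Wwp2 gene and best known in cartilage, had 51.7 CPM in HF and 12.5 CPM in IFE (2.04), with 2 of its 6 peaks called by the stricter limit. Mir204, in Trpm3, had 15.6 CPM in HF and 4.38 CPM in IFE (1.82) in a single peak, and Mir184, a corneal microRNA, had 33.9 CPM in HF and 11.9 CPM in IFE (1.51). On the other side, Mir203, which holds back p63 as mouse epidermis stratifies, had 57.6 CPM in HF and 128.6 CPM in IFE (-1.16), and Mir211, in Trpm1, had 10.3 CPM in HF and 23.7 CPM in IFE (-1.19). Mir199a-1 had 6.58 CPM in HF and 17.1 CPM in IFE (-1.37), while the second hairpin of miR-199a-3p stood at 0.27. A list of 40 skin microRNAs, 37 of them measured, had 1 higher (Mir184) and 1 lower (Mir203), and a median of -0.07, with Mir205 at -0.26.

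**Figure D4:**
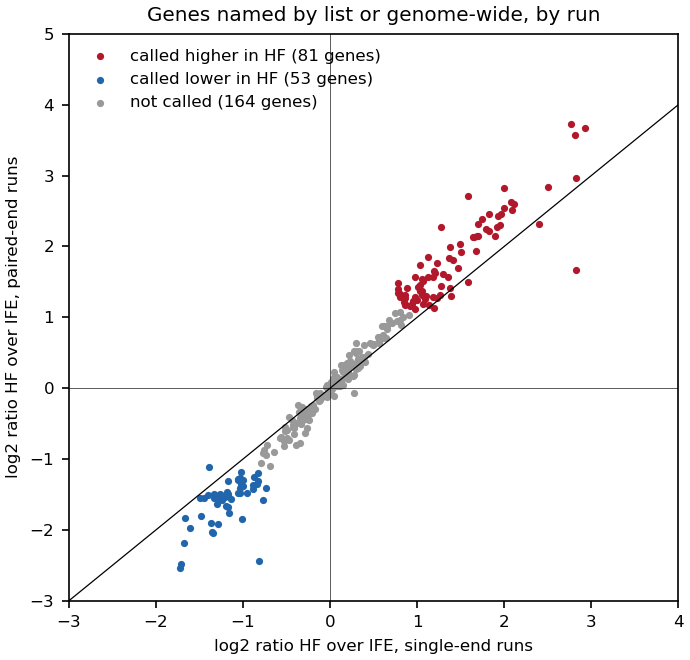
Log2 ratio of HF over IFE in the paired-end runs against that in the single-end runs for 298 named genes, of which 81 were called higher, 53 lower and 164 not called. Most called genes lie farther from 0 in the paired-end runs.

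The called peaks were finally read in the tumour samples, which did not choose them. The 2745 peaks higher in HF had a median of 1.35 CPM in K14 Epcam+, 1.24 and 1.74 CPM in Lgr5 Epcam+ samples 1 and 2, and 1.51 CPM in Lgr5 Epcam-, all below the 1.76 CPM of IFE and far below the 10.4 CPM of HF. The 939 peaks lower in HF had medians of 2.27, 2.13 and 1.97, and 1.44 CPM in the same order, below the 3.30 CPM of HF and the 14.8 CPM of IFE. Of the peaks higher in HF, 8.38% stood nearer to HF than to IFE in K14 Epcam+, 11.2% and 17.1% in Lgr5 Epcam+ samples 1 and 2, and 18.2% in Lgr5 Epcam-. Of the peaks lower in HF, 80.7%, 74.97%, 81.4% and 91.6% stood nearer to HF in the same order of samples. All tested peaks had medians of 2.84, 2.72, 2.77 and 2.92 CPM in that order, above those of both sets in each tumour sample. The upper quartiles of the lower set were 6.44, 8.03 and 5.68 CPM in the Epcam+ samples and 2.52 CPM in Lgr5 Epcam-. Those of all tested peaks were 6.28, 7.13, 6.665 and 6.155 CPM, so part of the lower set was not low in the Epcam+ tumours. The K14 Epcam+ single-end run had a low share of its counts on chromosomes 16 to X, 8.37% against 14.8% in its paired-end run; its medians in the paired-end run alone were 1.16 CPM for the higher set and 2.04 CPM for the lower.

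**Figure D5:**
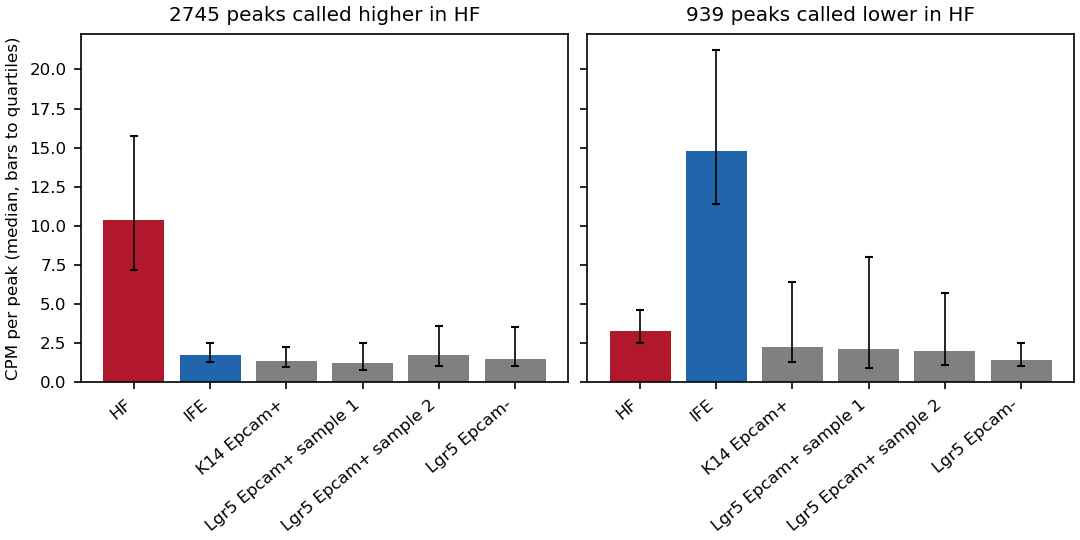
Median CPM with quartiles (vertical axis) of the 2745 peaks higher and the 939 peaks lower in HF, in the 6 samples. The higher set stands at 10.4 CPM in HF against 1.24 to 1.76 CPM in the others, and the lower set at 14.8 CPM in IFE against 1.44 to 3.30 CPM in the others.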

How the data were processed

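ATAC-seq counts per peak were deposited by the authors as raw counts, 1 table per run, for 12 runs of 6 samples; Bowtie2, HOMER, bedtools and HTSeq on mm10 are named in the submitters' processing notes, without versions. Tables list 177240 peaks with a median width of 1097 bases, and the peak set was shared by all samples. Rows for reads outside peaks, ambiguous reads and low-quality reads were left out of library sizes; reads outside peaks were 76.0% in HF and 70.4% in IFE of those in and outside peaks. Single-end and paired-end runs of a sample were summed as 1 sample. TMM factors over the 6 summed samples came from edgeR 4.0.16 in R 4.3.3, and log2 CPM used a prior count of 2. Tables were processed in Python 3.11.15. Exact 95% Clopper-Pearson intervals of the ratio cover counting error only, and reads without molecular identifiers are not independent molecules. The expected background assumes a mappable genome of 2722 Mb.

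Each peak was given to the closest span of a protein-coding gene up to 50 kb away (82.7% of peaks), since RefSeq names without strand were used and the promoter table gives start sites for 79.9% of 21887 genes. Of 696 list entries, 695 matched. A motif search inside peaks was not used here. The rule of calls was checked on simulated counts drawn from the IFE levels, with changes larger than the limit and the scale known. Such counts hold no background difference, scaling error or spread between animals, so the check does not cover these. Members, lists and motifs were chosen with earlier results of these data known. Per list or family, the rule for names takes the 3 called members of largest ratio in each direction and the 2 uncalled members of highest mean CPM; over the genome, the 15 genes and 10 peaks of largest ratio each way and the 10 genes with most called peaks each way. Start-site peaks, microRNAs and other names outside it were picked after their values were seen. Other settings tried were loess scaling, total-count scaling, size factors from DESeq2 1.42.0, background subtraction, each run alone, a prior count of 0.5, a level filter, other limits, peaks within 10 kb, and TMM factors from HF and IFE only, the last chosen after seeing the data. The values of 1 called barrier lipid gene are not reported here.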

Additional observations from a re-analysis of the deposited data

How the results depend on the processing

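No paired analysis was possible because each group had 1 sample. The count of peaks higher in HF, 2745, became 1756 in the single-end and 4614 in the paired-end runs, 13922 with the background subtracted and 13352 at a limit of 1. Peaks lower in HF, 939, became 481 with total-count scaling, 177 with loess scaling, 284 and 2439 in the single-end and paired-end runs, 8673 with the background subtracted and 14671 at a limit of 1. Loess scaling shared 171 of the 939 lower peaks with the calls as reported. Genes higher in HF, 462, became 727 in the paired-end runs, 1036 with the background subtracted and 180 with the level filter. Genes lower in HF, 269, became 161 and 461 in the single-end and paired-end runs, 986 with the background subtracted and 89 with the level filter, which leaves fewer genes. The share of called peaks that were higher, 74.5%, became 87.6% with total-count scaling, 70.5% with DESeq2 size factors, 95.5% with loess scaling, 61.6% with the background subtracted, 86.1% and 65.4% in the single-end and paired-end runs, 71.8% with the level filter, 47.65% at a limit of 1 and 76.95% with TMM factors from HF and IFE only. Il12b was -0.10 and Zfp957 0.23 with peaks within 10 kb, both reversed in sign. The 26 named peaks kept their calls under each scaling, with the background subtracted and in the paired-end runs, and 1 was lost in the single-end runs. They were picked for the largest ratios and so do not stand for the other calls. Of all called peaks, the single-end runs kept 1668 of 2745 higher and 250 of 939 lower. Of 310 named or listed genes, 29 lost their call in the single-end runs, 6 with loess scaling and 3 with total-count scaling. Of 303 with peaks within 10 kb, 9 lost it, beside the 2 reversed. These totals include many genes that were not called and so had no call to lose. Over all called genes, the single-end runs kept 320 of 462 higher and 155 of 269 lower. The cause of these moves was not tested. The counting intervals do not cover variation between animals or preparations.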

Other observations

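Potassium channel genes, measured at 89 loci, held 5 called higher in HF and 3 lower, with a median of 0.01 that changed sign under total-count scaling, with the background subtracted, in the paired-end runs and with peaks within 10 kb. Kcna10, a voltage-gated channel, had 27.9 CPM in HF and 7.61 CPM in IFE (log2 ratio 1.87), and Kcnb2, another, had 71.8 CPM in HF and 22.7 CPM in IFE (1.66). Kcnj16, an inward rectifier, went the other way with 28.7 CPM in HF and 73.2 CPM in IFE (-1.35). Hair-related families were mixed. Of 51 keratin genes 3 were higher and 6 lower, and the lower ones included Krt35, a hair shaft keratin, with 5.65 CPM in HF and 16.1 CPM in IFE (-1.50), beside Krt1 and Krt10. Of 22 keratin associated protein genes, which are near-identical copies and so uncertain one by one, 7 were higher and 1 lower. The chemokine gene Ccl7 had 17.1 CPM in HF and 4.03 CPM in IFE (2.08), and its neighbour Ccl2 had 57.8 CPM in HF and 28.1 CPM in IFE (1.04).

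In windows of 1 Mb, 1143 of 2530 held a peak called higher and 622 one called lower, with 338 holding both. The windows with most higher calls held 13, one at Trabd2b and one at Enpp1, Ccn2 and Moxd1. The window with most lower calls held 7 and lies at Nsf, Map3k14, Arhgap27 and Wnt3. A window on chromosome 8, from 103 to 104 Mb, held 11 higher peaks, none of them within 50 kb of a protein-coding gene.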
